A study of Mus musculus with 24 samples.

Results

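Transcripts of 9 genes were followed in mouse hypothalamus: the gut peptide receptors Glp1r, Gipr, Cckar and Cckbr, the calcitonin and amylin receptor Calcr, its accessory proteins Ramp1, Ramp2 and Ramp3, and the ghrelin receptor Ghsr. They were chosen by gene symbol, through the Ensembl identifiers of a table of 55471 genes, and not by any measured value. Earlier results of these data were known at that time. All 9 passed the filter on low counts that left 18992 genes to test.

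The mice were chow-fed C57BL6/J males aged 18 weeks, each with a gastric catheter. Overfed mice (ExpOF) received a liquid diet with added sucrose that was raised to 150% of energy infusion by day 9, and control mice received sterile water at the same flow. Hypothalami were taken on day 14, at the end of overfeeding (ExpOF d14 and Control d14), or on day 17 (ExpOF d14+3 and Control d14+3). By day 17 the overfed mice had been on water for 3 days, while controls had received water throughout. Each library is 1 mouse, with 6 mice per group as deposited, and the study removed 1 Control d14 mouse for poor RNA quality, which leaves 23 libraries. All mice, controls included, lived with surgery, tethering and infusion, and whole hypothalamus was measured, so fewer cells of a type and less RNA per cell cannot be told apart.

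Glucagon-like peptide 1, gastric inhibitory polypeptide, cholecystokinin and ghrelin are released by the gut after or before meals, and amylin is released by the pancreas with insulin. Their receptors sit on hypothalamic and hindbrain neurons and activation of most of them is known to lower food intake, while that of the ghrelin receptor raises it. The calcitonin receptor binds amylin with high affinity only when it is joined by a receptor activity-modifying protein (RAMP), and the same RAMPs turn the calcitonin receptor-like receptor Calcrl into receptors for CGRP and adrenomedullin.

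The totals of counts assigned to genes ranged from 8928182 to 34848437 per library. The labels give 3 mice of each group in a July and 3 in a September cohort, and the removed mouse was a September one. Replicates 1 to 3 of each group were in extraction round 1 and replicates 4 to 6 in round 2. The RNA integrity number (RIN) averaged 9.20 ± 0.860 (SD, n = 5) for Control d14 and 9.75 ± 0.138 (SD, n = 6) for ExpOF d14 mice, then 8.62 ± 1.09 (SD, n = 6) for Control d14+3 and 9.43 ± 0.450 (SD, n = 6) for ExpOF d14+3 mice. Neuron markers were present in every library, with summed levels between 4612 and 5823 CPM (counts scaled to a common library size). Choroid plexus markers, which mark a neighbouring epithelium, summed to between 34.68 and 69.28 CPM except in Control d14 replicate 5 (3038 CPM) and ExpOF d14+3 replicate 4 (1287 CPM).

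The genes lie on 7 chromosomes of mm10, as the deposited table gives them. Glp1r spans chr17:30901817-30937567 on the plus strand, Gipr chr7:19156061-19166127 on the minus strand, Calcr chr6:3685680-3764714 on the minus strand, Ramp1 chr1:91179822-91225196 on the plus strand, Ramp2 chr11:101246028-101259546 on the plus strand and Ramp3 chr11:6658521-6677472 on the plus strand. Cckar spans chr5:53697776-53707705 on the minus strand, Cckbr chr7:105425731-105470898 on the plus strand and Ghsr chr3:27371351-27378010 on the plus strand. Counts are per gene over its exons. In GENCODE vM21, 1103 of the 3301 exon bases of Ramp2 are also exons of Vps25, a gene on the same strand. Reads there could not be given to 1 gene without a rule, and Ramp2 values are uncertain to that extent. Vps25 had between 11 and 39 counts per library, and Ramp2 between 91 and 498. Ramp3 shares 101 of 1380 exon bases with the opposite-strand pseudogene Gm11978, which had between 0 and 15 counts per library.

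Promoter sequences are shown for the 4 members whose levels were most closely correlated across libraries, in either direction, as described further on. Ramp3 ran opposite to Glp1r, Calcr and Ghsr. RefSeq promoters (GRCm38.p6, 250 bases before to 50 after the gene start) were found for 6 of the 9 members, and for Calcr at 2 starts. Capitals mark the GC box GGGCGG on either strand, which 35.7% of the 32851 promoters in the same table hold. Glp1r (chr17:30901617-30901916, plus strand) held it 3 times, with 1 base of overlap in a pair of them, and Ramp3 (chr11:6658283-6658582, plus strand) also held it 3 times. Calcr (chr6:3763574-3763873, minus strand) held it once at the start shown and not at its other start (chr6:3764664-3764963), which is the gene's end in the deposited table, and Ghsr (chr3:27371101-27371400, plus strand) held none.
Glp1r: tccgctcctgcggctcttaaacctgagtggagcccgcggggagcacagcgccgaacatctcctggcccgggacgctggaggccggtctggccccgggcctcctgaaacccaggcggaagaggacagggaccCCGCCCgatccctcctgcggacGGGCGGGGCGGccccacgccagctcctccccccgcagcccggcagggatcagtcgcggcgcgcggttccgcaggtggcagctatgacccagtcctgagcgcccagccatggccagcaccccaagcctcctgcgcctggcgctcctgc
Calcr: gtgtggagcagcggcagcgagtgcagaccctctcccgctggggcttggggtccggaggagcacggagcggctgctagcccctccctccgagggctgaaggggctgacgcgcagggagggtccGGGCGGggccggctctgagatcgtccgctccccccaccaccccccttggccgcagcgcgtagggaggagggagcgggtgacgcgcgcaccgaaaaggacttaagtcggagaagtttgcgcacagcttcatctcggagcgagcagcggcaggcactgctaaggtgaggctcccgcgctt
Ghsr: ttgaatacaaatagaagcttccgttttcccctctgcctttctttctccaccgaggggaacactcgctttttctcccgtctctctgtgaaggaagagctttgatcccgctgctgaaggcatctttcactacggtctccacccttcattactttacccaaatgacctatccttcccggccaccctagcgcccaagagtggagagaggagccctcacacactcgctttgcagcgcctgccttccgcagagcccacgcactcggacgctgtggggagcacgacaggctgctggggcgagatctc
Ramp3: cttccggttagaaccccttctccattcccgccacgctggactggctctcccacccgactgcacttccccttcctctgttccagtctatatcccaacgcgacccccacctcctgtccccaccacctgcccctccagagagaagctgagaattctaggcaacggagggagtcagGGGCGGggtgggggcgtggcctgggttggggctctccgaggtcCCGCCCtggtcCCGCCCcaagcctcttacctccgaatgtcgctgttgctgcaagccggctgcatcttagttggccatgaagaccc
GC content was 73.7% in the Glp1r promoter, 70.0% in Calcr at the start shown and 47.3% at its other start, 63.7% in Ramp3 and 56.3% in Ghsr. No TATA box (TATAAA, in 13.6% of promoters) and no cAMP response element (TGACGTCA, in 1.79%) was found on either strand of these windows. The Cckbr promoter held 1 CACGTG, a motif in 7.15% of promoters.

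Levels between genes were compared as CPM per kilobase of exon over the 23 libraries. Ramp3 had the highest mean, 30.7 ± 20.5 CPM per kilobase (SD, n = 23), but not in ExpOF d14, where it was at 13.0 ± 5.85 and Ramp1 at 14.5 ± 0.803 CPM per kilobase (SD, n = 6). Over all libraries Ramp1 followed with 15.9 ± 2.65 and Calcr with 8.00 ± 1.37. Ramp2, Cckbr, Glp1r and Cckar came next, with 3.44 ± 0.653, 3.40 ± 0.400, 3.13 ± 0.487 and 2.64 ± 0.278 CPM per kilobase, and neighbours in this order did not differ beyond their spread. Ghsr (1.07 ± 0.262) and Gipr (0.781 ± 0.156) were lowest, and their spreads overlapped. Gipr rested on 29 to 115 counts per library and Ghsr on 42 to 188, so counting error weighs most on these genes.

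**Figure D1:**
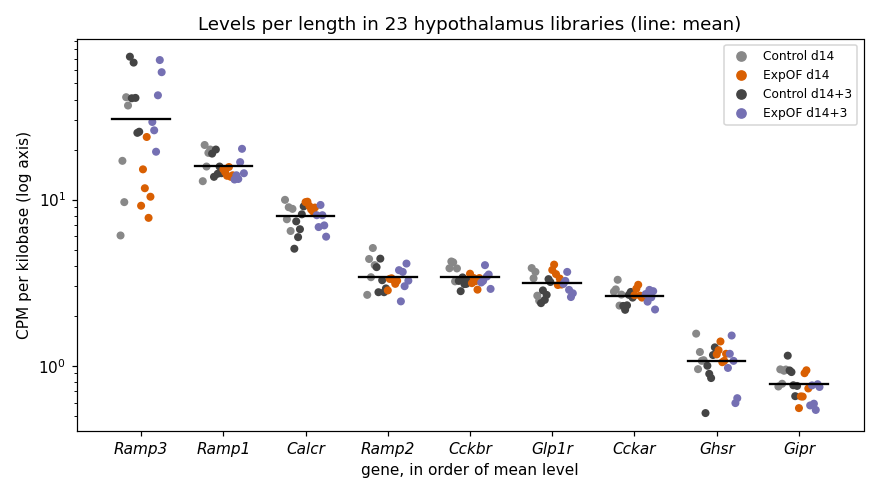
Level of each gene in CPM per kilobase of exon (log axis), 1 point per library, coloured by group, with the mean of 23 libraries as a line. Over all libraries Ramp3 has the highest mean (30.7) and the widest spread and Gipr the lowest mean (0.781), while in ExpOF d14 the mean of Ramp1 (14.5) is above that of Ramp3 (13.0).

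Ramp3 also stood apart in its spread. Its CPM ranged 11.9-fold, from 8.39 to 99.9, and its within-group SD of 0.794 on the log2 scale was larger than that of 98.5% of the genes tested. The within-group SD of the other members lay between 0.131 (Cckbr) and 0.378 (Ghsr). Both cholecystokinin receptors were steady, with 26.1% of genes below Cckbr and 31.5% below Cckar in SD.

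The first comparison asks which of these transcripts differed at the end of overfeeding. By edgeR's quasi-likelihood test, 0 of the 9 genes had an adjusted p-value (Benjamini-Hochberg over 18992 genes) under 0.05 in ExpOF d14 against Control d14, where 1 gene in all passed (0.00527%). At an unadjusted p-value under 0.05 the count was 2 of 9 (Ramp1 and Cckbr), against 26.7% of all genes, so the share is near the background. No member separated the groups without overlap, as 2.50% of genes did. The median log2 fold change of the 9 was -0.24, and that of all genes -0.02.

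Cckbr, the receptor that binds cholecystokinin and gastrin alike and the main one in brain, was at 9.21, 11, 11, 12 and 12.1 CPM in the Control d14 mice. In the ExpOF d14 mice the lowest, median and highest values were 8.23, 9.44 and 10.2 CPM. Every ExpOF mouse lay below 4 of the 5 controls, and the fifth control, replicate 5, lay within the ExpOF range. The log2 difference was -0.24 (SE 0.0854, edgeR p = 0.0100, adjusted p = 0.138), and the two-sided exact permutation test on log2 CPM gave p = 0.0216. It was -0.34 within the July and -0.09 within the September cohort.

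Ramp1, which with Calcrl forms the CGRP receptor, was at 39.1, 47.8, 57.8, 60.4 and 64.5 CPM in Control d14. ExpOF d14 mice had a lowest value of 41.5, a median of 43.3 and a highest of 47.4 CPM. The overfed group was narrow and lay inside the wide control range, above its lowest mouse (replicate 1). The log2 difference was -0.30 (SE 0.123, adjusted p = 0.148 in edgeR; exact permutation p = 0.0671). Without Control d14 replicate 1 it was -0.39 with an adjusted p of 0.0271, in a fit that called 4220 genes in all. Ramp2, the partner of Calcrl in the adrenomedullin receptor, followed the same pattern, with 8.81, 11.3, 13.3, 14.5 and 16.9 CPM in Control d14 and between 9.38 and 11.1 (median 10.8) in ExpOF d14. Its log2 difference was -0.30 (SE 0.147, adjusted p = 0.194 in edgeR), and -0.40 with an adjusted p of 0.0436 without that library. Without Control d14 replicate 5 the Ramp2 difference was -0.18, without both libraries high in choroid plexus markers -0.19, and with all 24 libraries -0.49. The Ramp1 difference with all 24 libraries was -0.57 (adjusted p = 0.0634 in edgeR). RIN ranged from 8 to 10 in Control d14 and from 9.6 to 10 in ExpOF d14, and pituitary markers reached 96.21 CPM in Control d14 replicate 1. Endothelial markers summed to between 315.2 and 394.3 CPM in Control d14 and between 299 and 340.1 CPM in ExpOF d14. Neuron markers summed to between 4612 and 5422 CPM in Control d14 and between 5363 and 5695 CPM in ExpOF d14. Of 16 tested hypothalamic regional markers, 12 were lower and 4 higher in ExpOF d14. In edgeR 1 of these passed, a lower one, and it was the only gene called of all those tested (0.00527%). The list includes Npy and Agrp, which the study reported as lower in overfed mice on d14, so it does not mark tissue alone. With RIN as a covariate neither Ramp1 nor Ramp2 passed in edgeR. The part of RIN or of any of these markers in the Ramp1 and Ramp2 values was not tested further.

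The other members on d14 had values that did not pass the test. Gipr, the receptor for gastric inhibitory polypeptide, was at 2.61, 2.71, 3.25, 3.30 and 3.31 CPM in Control d14 and between 1.94 and 3.27 (median 2.41) in ExpOF d14, with a log2 difference of -0.27 (95% interval -0.57 to 0.04). Ramp3 had the largest log2 difference in size, -0.76, with an interval from -1.67 to 0.15. That value was -0.42 without Control d14 replicate 5, -0.43 without both libraries high in choroid plexus markers and -1.68 with all 24 libraries (adjusted p = 0.0634 in edgeR). Glp1r (0.13, interval -0.11 to 0.36), Calcr (0.13, interval -0.12 to 0.37), Cckar (-0.02, interval -0.20 to 0.16) and Ghsr (0.02, interval -0.38 to 0.42) had intervals on both sides of 0.

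**Figure D2:**
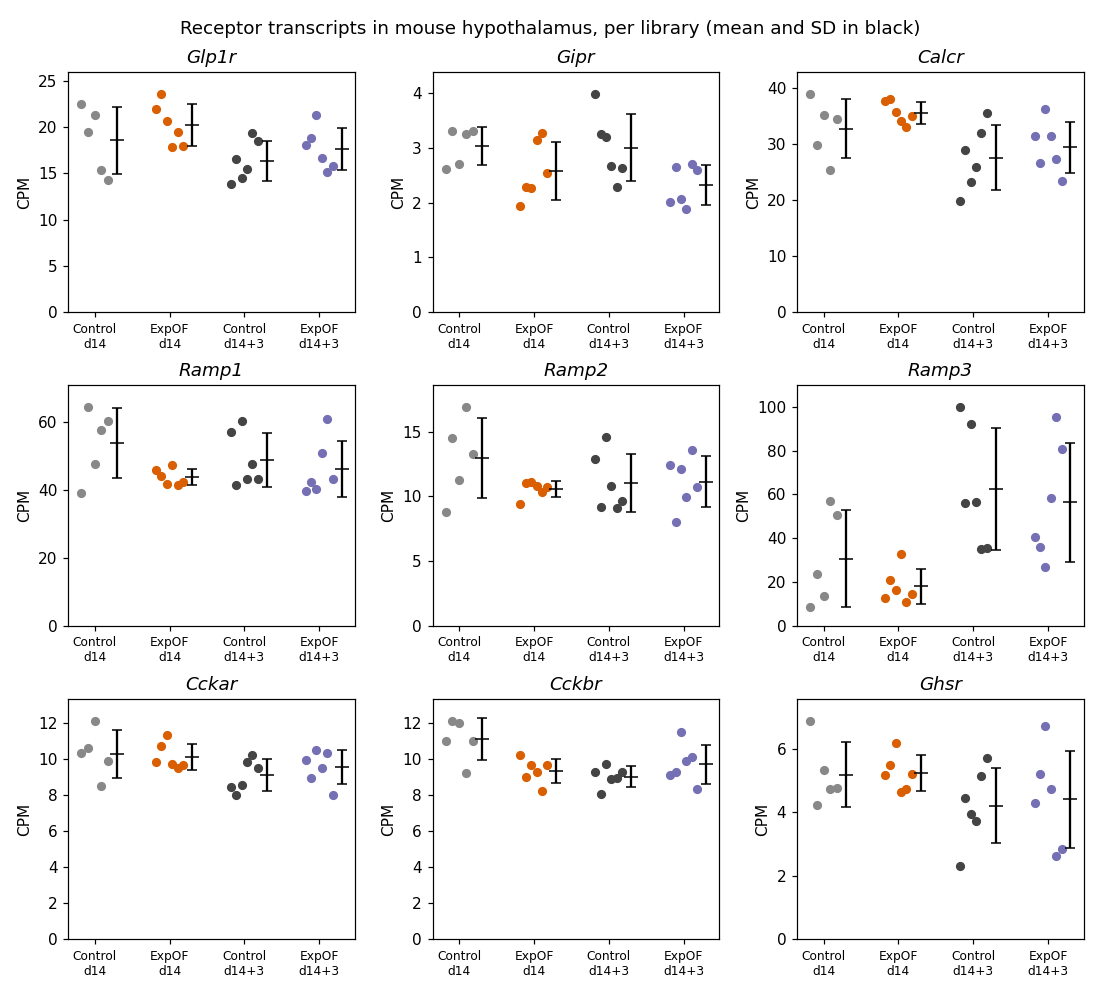
CPM of each gene in each of 23 libraries, by group, with the group mean and SD in black; the vertical axes start at 0 and differ between genes. Ramp3 spreads from 8.39 to 99.9 CPM, and for every gene the groups compared overlap.

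The second comparison asks what remained 3 days after overfeeding. Of the 9 genes, 0 passed at d14+3, and of all genes 0 passed (0%), with a smallest adjusted p of 0.192 in edgeR. DESeq2 called 55 genes, none of them a member. At an unadjusted p under 0.05 it was 1 of 9 (Gipr), against 7.11% of all genes in edgeR. Groups without overlap were found for 0 members and for 0.421% of genes. Gipr had CPM values with a lowest of 2.28, a median of 2.92 and a highest of 3.99 in Control d14+3. In ExpOF d14+3 the lowest, median and highest were 1.89, 2.33 and 2.7 CPM. The upper part of the control group, 3 mice, had no counterpart among the overfed mice. Those mice were the controls of extraction round 1, with 3.19 to 3.99 CPM and RIN of 9.3 to 9.9. The controls of round 2 had 2.28 to 2.66 CPM and RIN of 7.2 to 7.9. ExpOF d14+3 mice had 2.01 to 2.65 CPM in round 1 and 1.89 to 2.7 in round 2. The log2 difference was -0.39 (SE 0.149, adjusted p = 0.575 in edgeR, exact permutation p = 0.0325), with -0.16 within the July and -0.61 within the September cohort. With RIN as a covariate its adjusted p was 0.206 in edgeR, the lowest over the alternatives other than leaving 1 library out. Gipr did not pass with cohort and extraction round as covariates either. The part of round or RIN in the Gipr values was not tested beyond these fits. The remaining members had log2 differences between -0.16 (Ramp3) and 0.11 (Glp1r), none with an unadjusted p under 0.05.

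Because Gipr was lower in ExpOF mice on both days, the mean of both overfeeding effects was also tested. This comparison was added after those values had been seen. It gave -0.33 for Gipr (adjusted p = 0.0821 in edgeR) and -0.19 for Ramp1 (adjusted p = 0.150), so 0 of the 9 members passed, against 108 genes in all (0.569%). At an unadjusted p under 0.05 the same pair of members passed, against 29.2% of genes. Gipr passed with RIN as a covariate (-0.42, adjusted p = 0.0314), without Control d14 replicate 1 (adjusted p = 0.0292) and without ExpOF d14+3 replicate 5 (adjusted p = 0.0388), and in no other setting tried. Ramp1 passed in the last pair of these, with adjusted p-values of 0.0350 and 0.0458. The fits in which Gipr passed called 2083, 4339 and 2979 genes in all, in the order given, against the 108 above. Over all settings this number ranged from 0 to 4339.

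Whether overfeeding acted differently on the 2 days was tested as an interaction term of overfeeding and day. Of the members 0 passed, as did 0% of all genes, with a smallest adjusted p of 0.903 in edgeR. The unadjusted count was 1 of 9 (Cckbr), against 4.42% of genes. Cckbr was lower in ExpOF than in control mice on d14 (-0.24) and higher on d14+3 (0.11), an interaction of 0.35 (SE 0.119, adjusted p = 0.903 in edgeR). DESeq2 also called 0 genes.

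**Figure D3:**
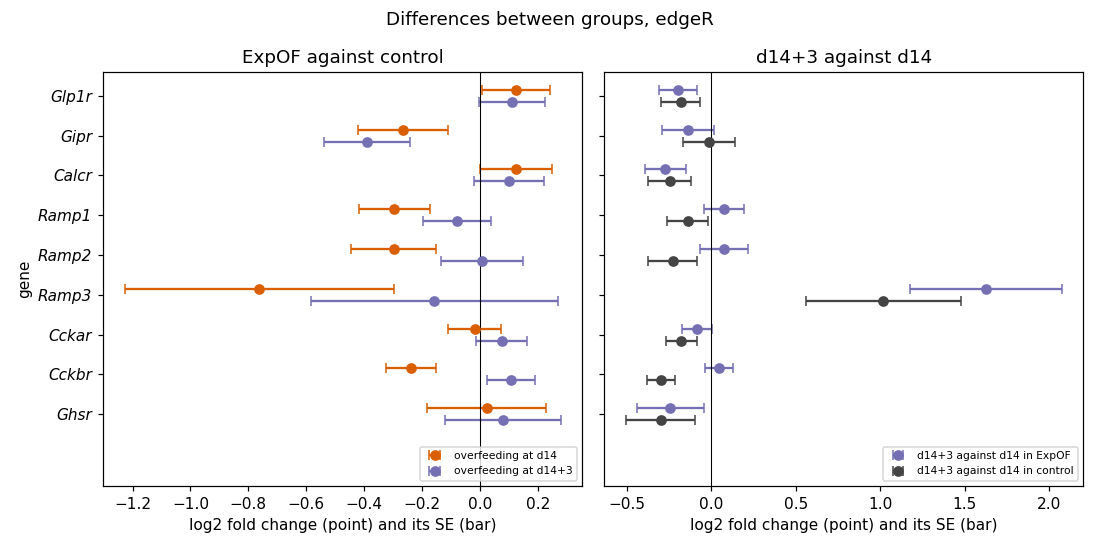
Log2 fold change of each gene in edgeR (point) with its SE (bar), for ExpOF against control on each day (left) and for d14+3 against d14 in each diet group (right). Ramp3 has the largest values in time, 1.62 in ExpOF and 1.02 in control mice, and Gipr is below 0 in both overfeeding comparisons.

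Time was compared within each diet group, in separate mice. In ExpOF mice 0 of the 9 genes passed, against 0% of all genes in edgeR, and 2 of 9 (Ramp3 and Calcr) had an unadjusted p under 0.05, against 7.79% of genes. In control mice 0 of 9 passed, against 1.15% of genes (218 genes), and 2 of 9 (Ramp3 and Cckbr) had an unadjusted p under 0.05, against 12.7% of genes. No member separated the days without overlap, as 0.832% of genes did in ExpOF and 1.58% in control mice. These comparisons share no mice with each other, but each shares a group with the overfeeding comparisons.

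Ramp3 joins Calcr in an amylin receptor and Calcrl in an adrenomedullin receptor. Its lowest, median and highest values were 10.7, 15.3 and 32.8 CPM in ExpOF d14 and 26.8, 49.5 and 95.4 CPM in ExpOF d14+3. In 5 of the 6 d14+3 mice the level was above that of every d14 mouse. The log2 difference was 1.62 (SE 0.450, p = 0.00177, adjusted p = 0.151 in edgeR), the exact permutation p was 0.00433, and the adjusted p in DESeq2 was 0.0231, so the call depends on the tool. It was 1.67 within the July and 1.62 within the September cohort. Control d14 mice had 8.39, 13.3, 23.6, 50.8 and 57.0 CPM, and Control d14+3 mice a lowest of 34.8, a median of 56.3 and a highest of 99.9 CPM. The log2 difference there was 1.02 (SE 0.459, adjusted p = 0.357 in edgeR). With all 24 libraries it was 0.11 (adjusted p = 0.922 in edgeR), and the removed Control d14 mouse had 201 CPM of Ramp3. By extraction round, Control d14 mice had 8.39, 13.3 and 23.6 CPM in round 1, and 50.8 and 57.0 in round 2. Control d14+3 mice had 56.2, 92.1 and 99.9 CPM in round 1, and 34.8, 35.3 and 56.5 in round 2. ExpOF d14 mice had 12.7, 16.2 and 21 CPM in round 1, and 10.7, 14.4 and 32.8 in round 2. ExpOF d14+3 mice had 26.8, 36.1 and 40.4 CPM in round 1, and 58.5, 80.6 and 95.4 in round 2. Alternatives other than leaving 1 library out included a fit with cohort and extraction round as covariates. Over them the Ramp3 difference ranged from 1.55 to 1.69 in ExpOF mice and from 0.11 to 1.36 in control mice. The part of the round in these values was not tested beyond that fit.

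Hypothalamic regional markers differed between the days that Ramp3 was compared over. Of 16 tested hypothalamic regional markers, 15 were lower on d14+3 than on d14 in ExpOF mice (median log2 difference -0.36) and 15 in control mice (median -0.43), while the medians of all genes were 0.004 and -0.007. In control mice 2 of these, Otp and Agrp, passed the test, where 1.15% of all genes did. Their summed level was 738 to 994.3 CPM in ExpOF d14 and 545.3 to 785.5 CPM in ExpOF d14+3. In control mice it was 782.4 to 1376 CPM on d14 and 627.1 to 929.4 CPM on d14+3. Of 5 tested cortical and hippocampal markers, 4 were lower and 1 higher on d14+3 in ExpOF mice (median log2 difference -0.35), and 4 higher and 1 lower in control mice (median 0.24), with none past the test in edgeR. The higher one in ExpOF mice, named after its values were seen, was Slc17a7, a vesicular glutamate transporter, with log2 differences of 1.90 in ExpOF (adjusted p = 0.149 in edgeR and 0.0172 in DESeq2) and 1.52 in control mice, so the sum does not stand for the list. The summed level of these markers was 18.55 to 36.38 CPM in ExpOF d14, 28.71 to 85.60 in ExpOF d14+3, 20.16 to 43.07 in Control d14 and 37.26 to 94.56 in Control d14+3. Control d14+3 replicate 1 had the highest level of both, with 94.56 CPM for this sum and 99.9 CPM for Ramp3. Their part in the Ramp3 values was not tested.

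Calcr had a lowest, median and highest level of 33.1, 35.4 and 38.0 CPM in ExpOF d14 and of 23.4, 29.4 and 36.3 CPM in ExpOF d14+3. Of the 6 later mice, 5 were below every d14 mouse. The log2 difference was -0.27 (SE 0.121, adjusted p = 0.563 in edgeR; exact permutation p = 0.0152), and in control mice it was -0.25 (interval -0.50 to 0.00). Cckbr in control mice went from the d14 values above to a lowest of 8.04, a median of 9.07 and a highest of 9.72 CPM on d14+3. The 6 later mice lay below all but the lowest d14 mouse, replicate 5. The log2 difference was -0.30 (SE 0.0850, p = 0.00178, adjusted p = 0.0869 in edgeR; exact permutation p = 0.00866), with an adjusted p of 0.0344 in DESeq2 and of 0.0285 in edgeR without Control d14 replicate 5, the library high in choroid plexus markers. Cckbr in ExpOF mice differed by 0.05 between days.

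Across the 23 libraries some of the members varied together, and Ramp3 ran opposite to Glp1r, Calcr and Ghsr. Not every member kept to a side: Cckbr had r of 0.35 with Calcr, 0.34 with Ramp1 and -0.31 with Ramp3. The pairs given below are a part of those computed. For the 36 pairs, correlations of log2 CPM were computed with permutation p-values from 100000 resamples, which cannot be smaller than 1e-05. Libraries share depth, RNA quality, extraction round and dissection, and the p-values are not corrected for the number of pairs. Libraries were shuffled over all groups, so a small p can come from any property that they share. The share of all gene pairs with such correlations was not computed. Each r was also computed without the 2 libraries farthest from the median of a single gene of the pair. That gene was Glp1r in its pairs, Calcr with Ghsr or Ramp3, Ramp1 with Ramp2, and Ramp3 only with Ghsr. Calcr and Ghsr varied in the same direction, with Pearson r = 0.82 and Spearman rho = 0.84 (permutation p = 1e-05 for each). Without the 2 libraries farthest from the median of Calcr r was 0.76, within the cohorts it was 0.78 (July) and 0.85 (September), and for deviations from the group means 0.80. Glp1r and Calcr gave r = 0.78 and rho = 0.79 (permutation p = 2e-05 and 3e-05), 0.72 without the 2 farthest libraries, and 0.67 and 0.91 within the cohorts.

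Ramp3 went the other way. With Glp1r it gave r = -0.86 and rho = -0.86 (permutation p = 1e-05 for each), -0.86 without the 2 farthest libraries, and -0.80 and -0.92 within the July and September cohorts. With Calcr, r was -0.80 and rho -0.82 (permutation p = 1e-05 for each), -0.75 without the 2 farthest, and -0.72 and -0.85 within cohorts. With Ghsr, r was -0.73 and rho -0.71 (permutation p = 1e-05 and 0.00016), -0.74 without the 2 farthest libraries, and -0.53 and -0.86 within cohorts. Ramp1 and Ramp2 gave r = 0.71 and rho = 0.55 (permutation p = 0.00017 and 0.00692), 0.64 without the 2 farthest, and 0.74 and 0.71 within cohorts.

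**Figure D4:**
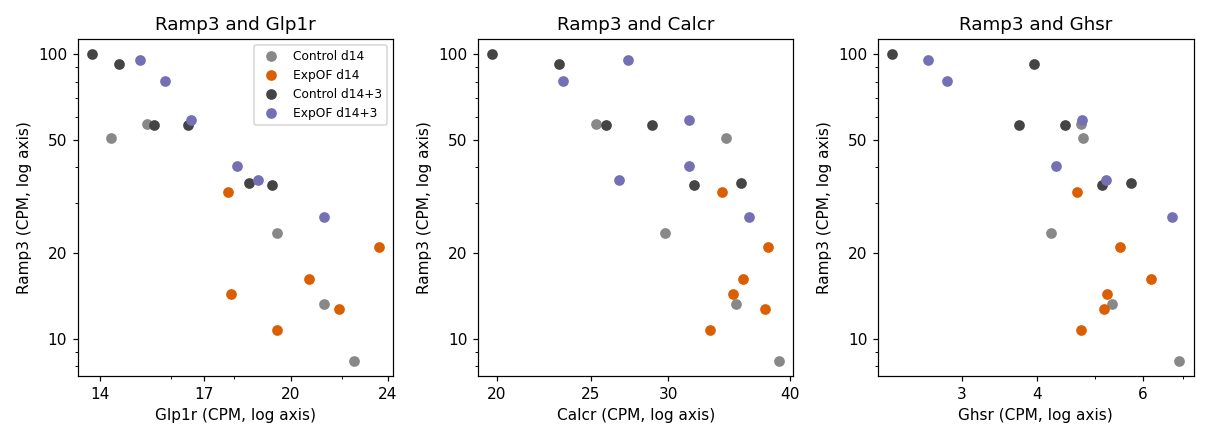
Ramp3 against Glp1r, Calcr and Ghsr (CPM, log axes), 1 point per library, coloured by group. Libraries high in Ramp3 are low in the other genes, with Pearson r of -0.86, -0.80 and -0.73 over 23 libraries.

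For each member, the genes with the most similar profile over the 23 libraries were taken from 15804 genes with a mean of at least 1 CPM, so high correlations are fixed by the choice and are given as a description. Ramp3 was most like Prkcd (r = 0.974), a protein kinase C known for its abundance in thalamus, Ccdc136 (0.973) and Gabrd (0.972), the delta subunit of GABA-A receptors. Prkcd itself was at 57.0 ± 21.4 CPM (SD, n = 6) in ExpOF d14 and 207 ± 85.8 CPM (SD, n = 6) in ExpOF d14+3. Calcr was most like AW551984 (0.939), Asb4 (0.919), a gene of the arcuate nucleus, and Gabrq (0.914), the theta subunit of GABA-A receptors. Glp1r was most like Ptpro (0.910), a receptor tyrosine phosphatase, Dnah1 (0.883) and Parm1 (0.882). Ramp1 was most like Eif3i (0.975), a translation initiation factor subunit, and the mitochondrial genes Chchd6 (0.971) and Atpif1 (0.970).

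Among the other members, Ghsr was most like Gpr179 (0.896), Kbtbd11 (0.890) and Mpp4 (0.873). Ramp2 was most like Mrps6 (0.880), of the mitochondrial ribosome, C1qc (0.870), a complement gene of microglia, and Snx3 (0.869). Cckbr was most like Zfp512 (0.817), Hdc (0.795), which makes histamine, and As3mt (0.791). Gipr was most like Fbxl14 (0.812), Mrps28 (0.800) and Crlf2 (0.797), and Cckar like Zdhhc23 (0.760), Gm14042 (0.745) and Dnah8 (0.738).

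Transcripts of some of the ligands were close to absent from this tissue. Gcg, which encodes glucagon-like peptide 1, had 8 counts in 23 libraries together, and Gip and Iapp (amylin) had 3 each. Of 17 genes for ligands and their processing, 11 were tested, and 0 passed with overfeeding on either day in edgeR, where 3 had an unadjusted p under 0.05 on d14, a share near the 26.7% of all genes, and 0 on d14+3 (7.11% of all genes). Cck, cholecystokinin, was at 22.6 ± 14.7 CPM (SD, n = 5) for Control d14 and 13.6 ± 4.85 CPM (SD, n = 6) for ExpOF d14 mice, a log2 difference of -0.75 (SE 0.424). On d14+3 the log2 difference of Cck was -0.70 (SE 0.393). Adm, adrenomedullin, had a log2 difference of -0.70 on d14 (SE 0.245, adjusted p = 0.137 in edgeR) and Cpe, a prohormone carboxypeptidase, of -0.19. Ghrl (ghrelin) gave 0.58 and 0.36 on the 2 days, Calca (CGRP) -0.16 and -0.05, and Dpp4, the protease that inactivates glucagon-like peptide 1, -0.19 and -0.14, none of which passed.

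Receptor partners were all measured (11 of 11), and 0 passed with overfeeding on either day in edgeR. Crcp, the CGRP receptor component, had a log2 difference of -0.37 on d14 (SE 0.0847, adjusted p = 0.135 in edgeR and 0.0265 in DESeq2). The beta-arrestin Arrb2 was at -0.16 on d14 and -0.15 on d14+3, Gprasp1 at 0.08 on d14+3, Calcrl at 0.23 and 0.19, and Mrap2, which modulates Ghsr, at -0.09 and 0.04. In control mice between days 1 of the 11, the receptor kinase Grk5, rose by 0.43 (adjusted p = 0.0249 in edgeR), where 1.15% of all genes passed.

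Of 17 related receptors, 13 were tested and 0 passed with overfeeding on either day in edgeR. The parathyroid hormone receptor Pth1r had a log2 difference of -0.40 and the neurotensin receptor Ntsr2 of -0.18 on d14. On d14+3 Pth2r was at 0.45 (SE 0.126, adjusted p = 0.333 in edgeR) and the neuromedin U receptor Nmur2 at 0.34. All 30 genes of G protein, cAMP and phospholipase C signalling were tested and 0 passed with overfeeding, with 10 at an unadjusted p under 0.05 on d14 and 2 on d14+3, shares near the 26.7% and 7.11% of all genes. Adenylyl cyclase Adcy3 was at 0.18 on d14 and 0.19 on d14+3, phospholipase Plcb1 at 0.30 on d14, and the stimulatory G protein Gnas at -0.28 on d14+3 (adjusted p = 0.333 in edgeR). Between days in control mice 3 of the 30, Gnal, Adcy1 and Plcb4, rose by 0.29, 0.96 and 0.38 on the log2 scale (adjusted p = 0.0295, 0.0121 and 0.0205 in edgeR), where 1.15% of all genes passed.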

How the data were processed

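Hypothalamic RNA of 24 mice was sequenced as poly-A selected, stranded libraries. The authors used STAR for alignment to mm10 and featureCounts 1.6.4 for counting on GENCODE vM22 genes, and the counts deposited are raw whole numbers without normalization. Whether counting used strand is not given in the sources used here. Symbols came from GENCODE vM21, which gave 55144 of 55471 genes a symbol. The table the study gives with its results identified the mouse it removed: leaving out Control d14 replicate 4 matched its mean values within 0.1% for 3542 of 3542 genes.

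Tests were made with edgeR 4.0.16 under R 4.3.3. Genes were kept by filterByExpr (minimum count 10, minimum total 15), scaled by TMM and fitted over all 4 groups with a robust quasi-likelihood model. Benjamini-Hochberg adjustment covered 18992 genes, with a threshold of 0.05. DESeq2 1.42.0 was an alternative, since it is the tool the study names. CPM values use TMM factors, and log2 CPM a prior count of 2. Exact permutation tests were two-sided, and with 6 against 5 or 6 mice the smallest p they can give is 0.00216. Replicates are separate mice. Libraries of 1 group were never duplicates: in 60 pairs the chi-square per degree of freedom was 2.95 or more. The tests were tried on simulated data.

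Named genes were the 9 members, their ligands and main partners, the 2 genes with the smallest p on each day from each of the pathway lists, and the 3 genes most like each member. The members, lists and alternatives were chosen with earlier results of these data known. Alternatives were another tool, size factors, filters, all 24 libraries, each cohort, covariates, a replicate block, only the groups compared and each library left out. The fit without the 2 libraries high in choroid plexus markers and the mean of both overfeeding effects were added after seeing the data. Counting error limits Gipr and Ghsr most.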

Additional observations from a re-analysis of the deposited data

Results flagged for a closer look

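The library of Control d14 replicate 4, which the study removed and no comparison uses, held 4 members above every other control library on a scale common to 24 libraries. Ramp3 was at 201 CPM there, against at most 99.7 CPM in the other controls, Ramp1 at 126 CPM against 64.0, Ramp2 at 25.9 CPM against 16.9, and Gipr at 3.99 CPM, which differs from the next highest control only beyond the digits shown. It also held 3 members below every other library: Calcr at 14.6 CPM against at least 19.8, Glp1r at 13.1 CPM against at least 13.8 and Ghsr at 2.25 CPM against at least 2.29. The same library had 4506 CPM of choroid plexus markers, 3140 CPM of neuron markers (at least 4612 in the others) and 2672 CPM of hypothalamic regional markers (at most 1376 in the others), and its labelled RIN was 9.8. The part of any of these in these levels was not tested. In none of the 36 combinations of a member and a group did 1 mouse lie far from the others by Dixon's test, and chance alone would mark about 1 in 20.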

How the results depend on the processing

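The limits of these data are few mice, wide spread of Ramp3 and changes in tissue markers between days, and most member calls stayed where they were. Over all alternatives 4 member values with 1 choice changed and 7 with 1 library left out passed the threshold. Some values changed sign, and not all of these were near 0. Ghsr in time in control mice was -0.301 in the main fit and 0.043 in the July cohort.

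The number of genes called moved with the tool, with RIN and with single libraries. DESeq2 called 166 genes at d14, 55 at d14+3, 202 in time in ExpOF and 531 in time in control mice, with 1 member in each of the comparisons in time (Ramp3, 1.64, and Cckbr, -0.29), and 1579 for the mean of both overfeeding effects. With at least 10 counts in every library 28 genes were called in time in ExpOF mice and 364 for the mean effect, and with at least 1 count in all libraries 15 for the mean effect. All 24 libraries gave 2 for the mean effect. The July cohort alone gave 0 at d14, 0 in time in control mice and 3 for the mean effect, and the September cohort 0, 0 and 0. With RIN as a covariate 26 genes were called at d14+3 and 2083 for the mean effect, with 1 member (Gipr, -0.42). Covariates for cohort and extraction round gave 78 in time in ExpOF mice and 5 for the mean effect. Only the 2 groups compared gave 2 at d14, 123 in time in ExpOF and 0 in control mice. Without the libraries high in choroid plexus markers 1 member passed in time in control mice (Cckbr, -0.36, adjusted p = 0.0391 in edgeR), and the mean effect gave 4 genes. The replicate block gave 33 genes in time in control mice and 2 for the mean effect, and Gipr in time in control mice was 0.003. Only 2 of 11 same-numbered pairs had correlated deviations above 0.1. Same-numbered samples were also of the same extraction round, so this check cannot show that they share only a number. The block changed no member's call.

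Log2 differences that changed sign were as follows. At d14, Glp1r was -0.010, Cckar 0.127 and Ghsr -0.115 in the September cohort, Cckar 0.009 with RIN, and Ghsr -0.014 without the choroid-high libraries. At d14+3, Calcr was -0.063, Ramp2 -0.119 and Cckar -0.032 in the July cohort, Ramp1 0.089 in the September cohort and Ramp2 -0.025 with RIN. In the interaction, Ghsr was -0.082 with 24 libraries and -0.097 in July, Gipr 0.226 in July, Glp1r 0.126 and Calcr 0.150 in September, 0.020 each with RIN, and 0.073 and 0.044 without the choroid-high libraries. In time, Gipr was 0.033 and Ramp1 -0.062 in ExpOF and Ghsr 0.043 in control mice in July, and Gipr in control mice was 0.179 in September, 0.052 with RIN and 0.009 without the choroid-high libraries. For the mean effect, Cckar was -0.074 in July and -0.005 without the choroid-high libraries, and Cckbr 0.026 in September. The causes were not tested.

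Leaving out 1 library at a time gave these ranges. At d14 the genes called ranged from 1 to 4220 (without Control d14 replicate 1) and the members from 0 to 2, Cckar from -0.081 to 0.049 and Ghsr from -0.043 to 0.147. At d14+3, Ramp2 ranged from -0.054 to 0.103, Ramp3 from -0.369 to 0.030 and Ghsr from -0.074 to 0.188. In the interaction, Glp1r ranged from -0.106 to 0.075, Calcr from -0.109 to 0.058 and Ghsr from -0.093 to 0.161. In time in ExpOF mice the genes called ranged from 0 to 157 (without ExpOF d14+3 replicate 3), Ramp1 from -0.013 to 0.115 and Cckbr from -0.005 to 0.086. In time in control mice they ranged from 24 to 313, the members from 0 to 1 (Cckbr, without Control d14 replicate 5) and Gipr from -0.117 to 0.051. For the mean effect the genes ranged from 4 to 4339, the members from 0 to 2, Cckar from -0.003 to 0.062 and Ghsr from -0.027 to 0.110.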
